A study of Mus musculus with 4 samples.

Results

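The replication-dependent histone genes are the clustered genes whose symbols begin with Hist1h to Hist4h, and 66 of the 46406 gene rows in the deposited table carried such a symbol. All 66 matched a RefSeq gene, 63 of them protein-coding and 3 pseudogenes (Hist3h2bb-ps, Hist1h2aj and Hist1h2al). Of the 66, 54 belonged to Hist1, 8 to Hist2, 3 to Hist3 and 1 to Hist4, and by product 6 were H1, 17 H2A, 19 H2B, 12 H3 and 12 H4 genes. In all, 65 passed the filter on low values, a mean of at least 0.1 RPKM (reads divided by the length of the gene's feature and by the library total), and the exception, Hist1h4n, was listed at 0 in every library.

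Reads came from ATAC-seq, in which the Tn5 transposase cuts and tags accessible DNA, in J1 mouse embryonic stem cells grown without feeder cells. There were 2 control libraries, labelled wild type, and 2 libraries labelled Zscan4 OE, for overexpression of Zscan4, a zinc finger gene active in early embryos and in a small fraction of stem cells. All 4 carry the same passage label, PN+8. The labels do not name the vector or promoter of the overexpression, and do not say whether libraries with the same number shared a batch or whether replicates were separate cultures, so a p-value here reflects no more than the spread of these 4 libraries, which may be technical.

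Core histones H2A, H2B, H3 and H4 form the protein spool of the nucleosome, and H1 binds the linker DNA between spools. Dividing cells make most of this protein in S phase from clustered genes that lack introns and whose messenger RNAs end in a stem-loop rather than a poly(A) tail. NPAT, which gathers at the clusters in nuclear bodies, and factors such as HINFP and OCT1 act at their promoters, while SLBP and the U7 snRNP process the transcripts. Embryonic stem cells spend much of their cycle in S phase. A few Hist1 genes (Hist1h1t, Hist1h2aa and Hist1h2ba) encode testis types made in male germ cells.

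Many H2A and H2B genes lie head to head and share the DNA between their start sites. RefSeq placed 9 such pairs in the Hist1 cluster, with 163 to 280 bp between the starts. The sequences below, from RefSeq's promoter table for GRCm38.p6 (the assembly behind mm10), show the shared DNA of the pair with the highest H2B level, of a pair with few reads, and of the testis pair, followed by the 150 bases before the start of members on which the later results turn. Capitals mark matches to 4 motifs, each searched on both strands. The CCAAT box was searched by these letters. The TATA box was searched as TATAAA. The octamer, to which OCT1 binds, was searched as ATTTGCAT. The H1 box of linker histone promoters was searched as AAACACA. The table counts reads over gene features whose coordinates are not given, so whether any of these stretches was counted is not known. For some of these genes the feature length behind the values exceeds the RefSeq span (1560 bp against 725 bp for Hist1h1c).

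Between Hist1h2ae (minus strand) and Hist1h2bg (plus strand), chr13:23571221-23571399, plus strand, and likewise between Hist1h2bq and Hist1h2ao, chr13:21810200-21810366, and between Hist1h2ba and Hist1h2aa, chr13:23934187-23934436 (250 of the 280 bp):
Hist1h2ae-Hist1h2bg: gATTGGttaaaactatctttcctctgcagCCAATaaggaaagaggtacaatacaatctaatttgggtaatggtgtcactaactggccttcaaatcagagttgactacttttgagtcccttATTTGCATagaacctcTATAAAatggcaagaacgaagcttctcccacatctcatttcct
Hist1h2ao-Hist1h2bq: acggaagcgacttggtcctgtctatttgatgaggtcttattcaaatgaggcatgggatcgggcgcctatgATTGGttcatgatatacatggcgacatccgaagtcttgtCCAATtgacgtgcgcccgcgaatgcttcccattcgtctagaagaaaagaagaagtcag
Hist1h2aa-Hist1h2ba: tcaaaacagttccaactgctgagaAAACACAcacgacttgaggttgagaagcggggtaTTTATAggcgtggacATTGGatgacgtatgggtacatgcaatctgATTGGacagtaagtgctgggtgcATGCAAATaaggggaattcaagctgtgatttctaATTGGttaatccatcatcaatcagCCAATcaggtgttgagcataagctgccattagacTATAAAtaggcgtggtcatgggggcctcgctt
Upstream of Hist2h2bb (chr3:96269550-96269699, plus strand), Hist1h1c (chr13:23738657-23738806, plus), Hist1h1t (chr13:23695661-23695810, plus), Hist1h4f (chr13:23551669-23551818, minus) and Hist1h4k (chr13:21750554-21750703, minus), each written 5′ to 3′ on the strand of the gene:
Hist2h2bb: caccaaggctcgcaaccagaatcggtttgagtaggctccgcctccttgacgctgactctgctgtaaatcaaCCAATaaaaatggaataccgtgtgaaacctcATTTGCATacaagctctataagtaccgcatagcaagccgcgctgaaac
Hist1h1c: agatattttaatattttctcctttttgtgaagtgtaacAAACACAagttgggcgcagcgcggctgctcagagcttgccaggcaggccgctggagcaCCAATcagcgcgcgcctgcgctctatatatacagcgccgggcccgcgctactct
Hist1h1t: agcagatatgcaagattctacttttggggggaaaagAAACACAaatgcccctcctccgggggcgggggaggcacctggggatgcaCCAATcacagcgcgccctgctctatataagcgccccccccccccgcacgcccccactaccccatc
Hist1h4f: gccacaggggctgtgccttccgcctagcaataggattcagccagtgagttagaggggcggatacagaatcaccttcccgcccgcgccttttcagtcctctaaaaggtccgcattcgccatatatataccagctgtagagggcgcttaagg
Hist1h4k: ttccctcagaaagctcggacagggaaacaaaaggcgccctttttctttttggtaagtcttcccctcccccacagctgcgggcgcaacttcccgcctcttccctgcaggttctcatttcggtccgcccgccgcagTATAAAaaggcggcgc

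Promoters of 58 members were in the RefSeq table, each 250 bases before to 50 after the start. A CCAAT box was in 50 of the 58 (86.2%), against 37.9% of 27025 promoters of the same length, 1 per gene. It was in all 6 H1 promoters and all 10 H3 promoters, in 15 of 15 H2A and 16 of 16 H2B promoters, but in 3 of 11 H4 promoters (Hist1h4a, Hist1h4c and Hist1h4d). A TATA box was in 33 (56.9%, against 14.2%). The octamer was in 13 (22.4%, against 1.75%), 7 of H2A and 6 of H2B genes and none of the other types. The H1 box was in 9 (15.5%, against 7.14%), among them 5 of the 6 H1 promoters, the testis gene Hist1h1t included and Hist1h1a not. The median member with an octamer was at 11.9 RPKM over the 4 libraries and the median without at 9.03. For the TATA box these medians were 11.1 and 6.23 RPKM, and for the CCAAT box 9.44 and 8.39 RPKM. Members with an H1 box were lower, at a median of 6.57 RPKM against 9.81 without. They include all 3 testis genes, Hist1h1t, Hist1h2aa and Hist1h2ba, at means of 0.899, 2.95 and 0.940 RPKM. The rest of them ran from 4.08 (Hist1h1d) to 13.5 RPKM (Hist1h1c). Windows of a divergent pair overlap, so neighbouring promoters share matches, and a match is a description of letters and not of a bound site.

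Histone genes stood far above the other rows in every library. A value below is an RPKM put on 1 total per library, and 4 values in a row are always those of control 1, control 2, Zscan4 OE 1 and Zscan4 OE 2. The mean over the 66 genes was 13.1, 3.88, 12.96 and 5.601 RPKM, against 1.32, 0.956, 1.42 and 1.02 over all rows. Their median gene averaged 8.46 RPKM over the libraries, the 99.3rd percentile of all rows, whose median was 0.749. Of the 65 histone genes tested, 42 averaged at least 5 RPKM, where 1.83% of all tested rows did. Ribosomal protein genes (98 rows with a median feature length of 1734 bp, against 539 bp for histone genes), also highly transcribed, had means of 2.22, 1.27, 3.0005 and 1.63 RPKM, and olfactory receptor genes (1088 rows), silent in stem cells, had 0.290, 0.318, 0.331 and 0.307. The 1348 other protein-coding rows with features of 1000 bp or less averaged 1.38, 0.931, 1.49 and 1.07 RPKM. The order histone, ribosomal protein, all rows, olfactory receptor was the same in 4 of 4 libraries.

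The libraries were shallow, with totals of 1061428 to 4899494 reads and 131205 to 486528 reads on the features of the table (9.38% to 12.8% of the totals). Which total belonged to which library was chosen to make these shares alike, so levels between libraries rest on that choice, while shares of feature reads do not. A feature at 0 reads allows up to 3, or 2.83, 1.03, 0.832 and 0.612 RPM (reads divided by the library total only, on the same scale). Summed reads of stem cell and fibroblast markers overlapped on this readout, which is not expression. Over 12 embryonic stem cell markers they were 41.7 to 81.8 RPM, and over 8 fibroblast markers 51.8 to 79.9 RPM. Dppa5a and S100a4 were at 0 in control 1. These sums are not corrected for feature length, whose median was 2245 bp for the stem cell and 5110.5 bp for the fibroblast markers. Mean RPKM was higher for the stem cell markers in each library. It was 1.87, 1.27, 3.03 and 1.71 RPKM for them and 1.20, 1.22, 1.49 and 1.02 RPKM for the fibroblast markers. The sum over 5 primitive endoderm markers, none at 0 in any library, was 41.5 and 39.6 RPM in the controls and 31.6 and 25.9 RPM in Zscan4 OE, without overlap. The control 1 sum rested on 44 reads, and its exact Poisson interval of 30.1 to 55.6 RPM included the Zscan4 OE 1 sum. Sox17 alone gave 19, 43, 36 and 37 of the 44, 115, 114 and 127 reads. Of the 5 markers, 2 (Sox17 and Pdgfra) were wholly lower in Zscan4 OE, against 10.1% of all tested rows. The groups overlapped for Gata6, Gata4 and Dab2, and Dab2 averaged higher in Zscan4 OE (0.979 RPKM) than in control (0.848 RPKM). Of the 12 stem cell markers, 4 (Zfp42, Tdgf1, Dppa4 and Dppa5a) were wholly higher in Zscan4 OE, against 19.6% of all tested rows. Wholly lower were 0 of the 12. Of the 8 fibroblast markers, 1 was wholly higher and 2 were wholly lower. The part of these markers in the histone results was not tested. Zscan4a, Zscan4c, Zscan4d, Zscan4e and Zscan4f were listed at 0 in all 4 libraries, so the table holds no check of the overexpression.

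Across conditions, the summed histone reads did not separate the groups. The 66 genes took 682, 609, 2171 and 1358 reads, or 643 RPM (exact Poisson 95% interval 595 to 693), 209.7 (193 to 227), 602 (577 to 628) and 277 (263 to 292). These intervals cover counting error only. The controls averaged 426 ± 306 RPM and Zscan4 OE 439.6 ± 229.8 RPM (SD, n = 2 each), a ratio of 1.03, and the groups overlapped. The ratio was 0.937 between the libraries numbered 1 and 1.32 between those numbered 2. With 2 libraries against 2, no exact permutation test can give a p below 0.33.

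The larger difference lay within the groups. Control 1 had 3.06 times the histone RPM of control 2, and Zscan4 OE 1 had 2.17 times that of Zscan4 OE 2. As a share of all feature reads, which does not depend on the library totals, the histone genes took 0.520%, 0.224%, 0.470% and 0.279%, or 2.32 and 1.68 times more in the libraries numbered 1. Both libraries numbered 1 lay above both numbered 2 for 51 of 65 histone genes, against 23.2% of all tested rows, and lay below for 0 of 65, against 11.3%. Among the 54 members with 20 reads or more the count was 46, against 38.1% of rows that deep. In these 54 genes the ratio of control 1 to control 2 had a median of 3.10 and ran from 0.228 (Hist1h4h) to 19.1 (Hist1h2bf), and 48 were above 1. The ratio of Zscan4 OE 1 to Zscan4 OE 2 had a median of 2.11 and ran from 0.715 (Hist1h4f) to 6.79 (Hist1h3h), and 53 were above 1.

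Other rows moved with the library number too. The share of reads on features was 12.4%, 9.38%, 12.8% and 9.93%. These shares rest on totals chosen to make them alike, so they are no separate evidence. Ribosomal protein genes were 1.76 and 1.77 times higher in RPM in the libraries numbered 1 of the control and Zscan4 OE groups, and as a share of feature reads 1.34 and 1.38 times. Olfactory receptor genes were lower there, at 0.662 and 0.838 times as a share of feature reads. The part of library preparation, depth or cell state in the histone values was not tested.

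**Figure D1:**
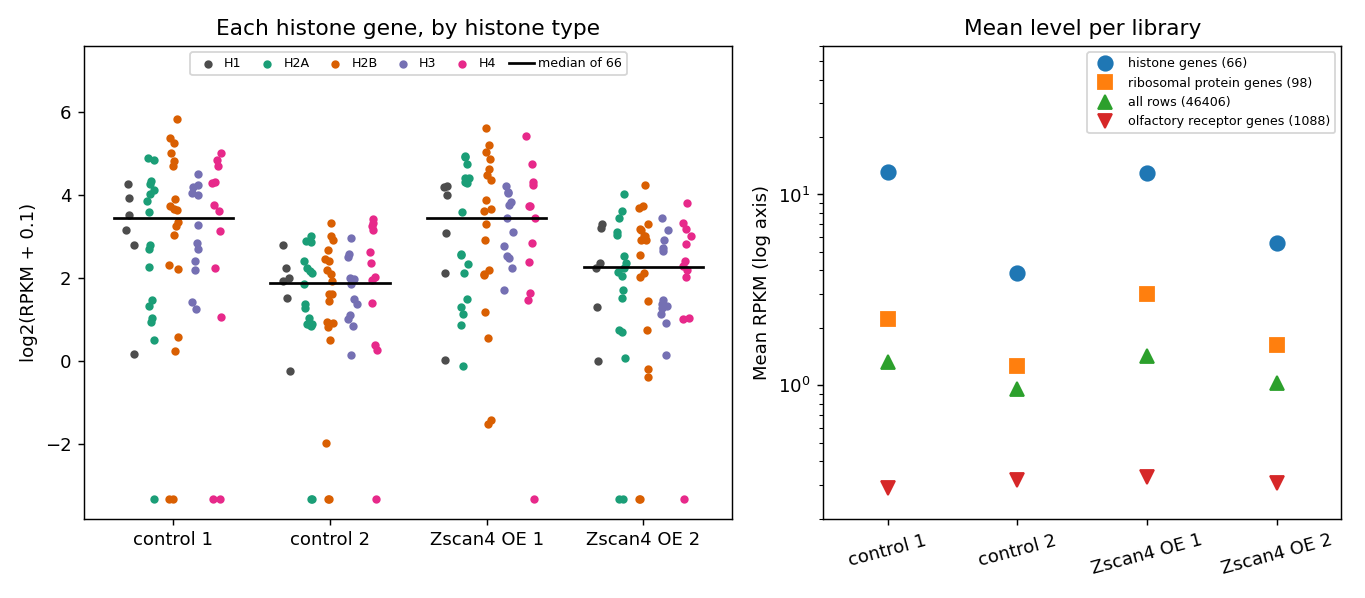
Left, each of the 66 histone genes as log2(RPKM + 0.1) in the 4 libraries, coloured by histone type, with the median of the 66 as a bar and genes without reads at the lowest level. Right, mean RPKM (log axis) of histone genes, ribosomal protein genes, all rows and olfactory receptor genes. Histone genes are highest in every library, and their means of 13.1 and 12.96 RPKM in the libraries numbered 1 stand above the 3.88 and 5.601 RPKM of those numbered 2.

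The pattern held in each cluster and each type as a sum. Hist1, the large cluster on chromosome 13, had the highest means (14.7, 4.18, 14.4 and 6.15 RPKM over 54 genes) and took 613, 521, 1947 and 1201 of the histone reads. Hist2 on chromosome 3 averaged 6.12, 2.86, 7.95 and 3.78 RPKM over 8 genes, Hist3 on chromosome 11 averaged 5.35, 2.14, 3.80 and 1.86 RPKM over 3, and Hist4h4 on chromosome 6, the only member of Hist4, was at 4.61, 1.203, 3.003 and 1.92 RPKM. Hist1 was above the other clusters in 4 of 4 libraries. The median feature length was 534 bp in Hist1 and 770 bp in Hist2. At 1000 bp or less Hist1 averaged 16.7, 4.59, 16.5 and 6.93 RPKM (41 genes) and Hist2 7.55, 3.75, 12.3 and 5.51 RPKM (4 genes). Their medians were 15.3, 4.26, 16.1 and 7.45 RPKM in Hist1 and 8.01, 4.02, 5.77 and 3.54 RPKM in Hist2. Hist2h2bb, at 32.8 and 12.9 RPKM in Zscan4 OE 1 and 2, raised the Hist2 means there.

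By product, H2B genes, which encode the partner of H2A in the nucleosome's dimers, had the highest mean in control 1 and both Zscan4 OE libraries (16.7, 3.69, 15.2 and 6.49 RPKM), and H4 genes the highest in control 2 (14.0, 5.22, 13.6 and 5.84 RPKM). H2A genes averaged 10.9, 3.43, 12.5 and 5.29 RPKM, H3 genes 10.9, 3.53, 10.4 and 4.55 RPKM, and linker H1 genes 10.4, 3.78, 11.1 and 5.32 RPKM. The order by median differed. H4 had the highest median in control 1 (12.8 RPKM, H2B 12.4) and control 2 (4.52 RPKM, H2B 2.99). H1 had it in Zscan4 OE 1 (12.3 RPKM, H2B 12.2) and H2B in Zscan4 OE 2 (7.42 RPKM). Summed RPM was higher in control 1 than control 2 by 2.59 times for H1, 2.86 for H2A, 3.68 for H2B, 3.21 for H3 and 2.88 for H4, and in Zscan4 OE 1 than Zscan4 OE 2 by 1.91 to 2.25 times. The ratio of Zscan4 OE to control was 0.955, 1.20, 1.07, 0.999 and 0.938 in the same order of types, each smaller than the ratio between libraries of the same group.

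The Hist1 genes lie in 2 blocks on chromosome 13, with Hist1h2al (a pseudogene, chr13:51200084-51203066) apart. The first block (chr13:21715711-22043658, 22 genes) averaged 14.7, 3.45, 14.9 and 5.19 RPKM and the second (chr13:23531044-23934913, 31 genes) 15.2, 4.83, 14.4 and 7.02 RPKM. Protein-coding genes that sit among the histone genes did not share these levels. Prss16, Zfp184 and Pom121l2, within the first block, averaged 2.05, 0.922, 1.41 and 1.249 RPKM, and Hfe, Slc17a1, Slc17a2, Slc17a3, Slc17a4 and Trim38, within the second, averaged 0.496, 0.389, 0.409 and 0.745 RPKM. Of these 9 neighbours, 3 had both libraries numbered 1 above both numbered 2, against 23.2% of all tested rows. In the second block 1 neighbour had both below, against 11.3% of all tested rows.

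**Figure D2:**
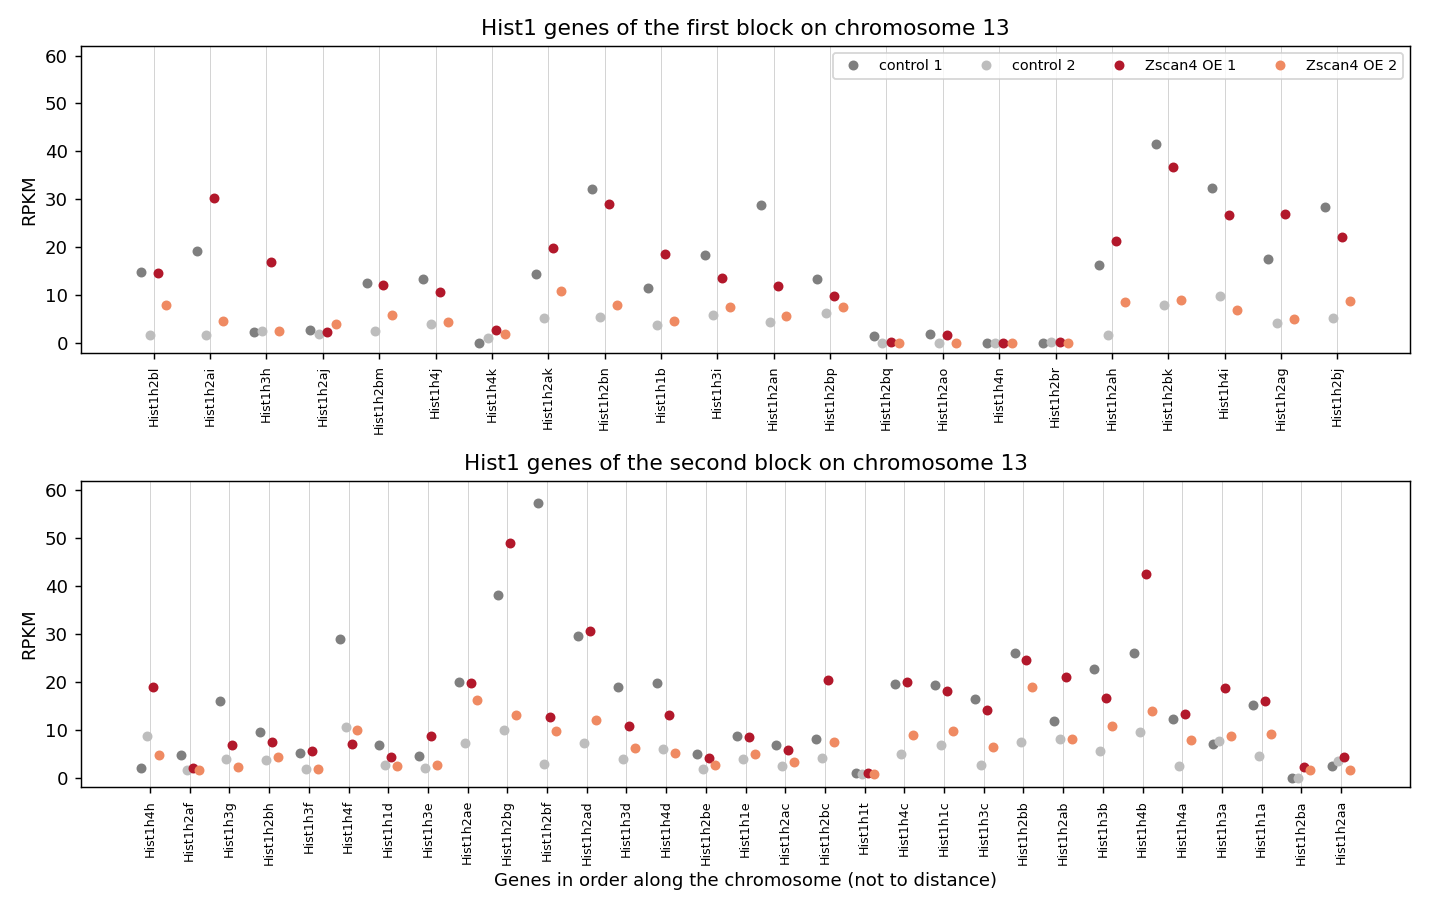
RPKM of the Hist1 genes in chromosome order (not to distance), the 22 genes of the first block above and the 31 of the second below, with a point for each library. Points of control 1 and Zscan4 OE 1 lie above those of control 2 and Zscan4 OE 2 at most genes, and Hist1h2bq, Hist1h2ao, Hist1h4n and Hist1h2br in the first block and Hist1h1t in the second stay at or below 1.96 RPKM.

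The 5 genes with the highest mean were 3 H2B genes, 1 H4 and 1 H2A, all in Hist1. Hist1h2bg (chr13:23571400-23571863), whose upstream DNA is printed above, was at 38.1, 10.03, 48.9 and 13.2 RPKM from 25, 18, 109 and 40 reads. Hist1h2bk (chr13:22035821-22036320), another H2B gene with an octamer, was at 41.6, 7.96, 36.7 and 9.005 RPKM. Both were high in the libraries numbered 1 and low in those numbered 2, with overlapping groups and fitted differences of Zscan4 OE from control of 0.38 ± 1.34 (SE) and −0.0014 ± 1.35 on the log2(RPKM + 0.1) scale. Hist1h4b (chr13:23756937-23757386), an H4 gene, was at 26.1, 9.54, 42.6 and 13.9 RPKM. Hist1h2bf (chr13:23573760-23574207), H2B, was at 57.2, 2.99, 12.6 and 9.74 RPKM, so that a single library, control 1, put it among the top 5. Its head-to-head partner Hist1h2ad (chr13:23574381-23574915), H2A, was at 29.6, 7.23, 30.5 and 12.1 RPKM.

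At the other end were near-silent rows. Hist1h2br (H2B) was at 0, 0.156, 0.251 and 0 RPKM and Hist1h2bq (H2B) at 1.40, 0, 0.275 and 0 RPKM, from 0 to 3 reads. Their 300-base promoters were identical in all bases. The sources used here do not say how the authors' counting treated reads that map to several copies, so values of near-identical histone genes are uncertain. The feature sequences of these genes were not compared. Hist1h2al was at 0, 0, 0.818 and 0 RPKM from 1 read. Hist1h2ao, the H2A partner of Hist1h2bq across the DNA printed above, was at 1.96, 0, 1.73 and 0 RPKM.

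Of the 9 divergent pairs, 7 were high in both partners and 2, Hist1h2ao with Hist1h2bq and the testis pair, were low in both. The pair Hist1h2ae and Hist1h2bg was at 20.1 and 38.1 RPKM in control 1, 7.34 and 10.03 in control 2, 19.7 and 48.9 in Zscan4 OE 1 and 16.2 and 13.2 in Zscan4 OE 2. Across the pairs the H2B gene was at 0.319 to 1.99 times its H2A partner by mean RPKM, and above it in 5 of 9. On log2 values Pearson's r between partners was 0.95 and Spearman's rho 0.60 (n = 9 pairs, which share libraries and depth). The relation rests on the 2 low pairs: over the other 7, r was 0.28 and rho 0.14. Over the 65 members, pairs of libraries correlated at r = 0.76 (control 1 with control 2) to 0.88 (Zscan4 OE 1 with Zscan4 OE 2) on log2 values. These are descriptions across genes, which are not independent replicates.

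**Figure D3:**
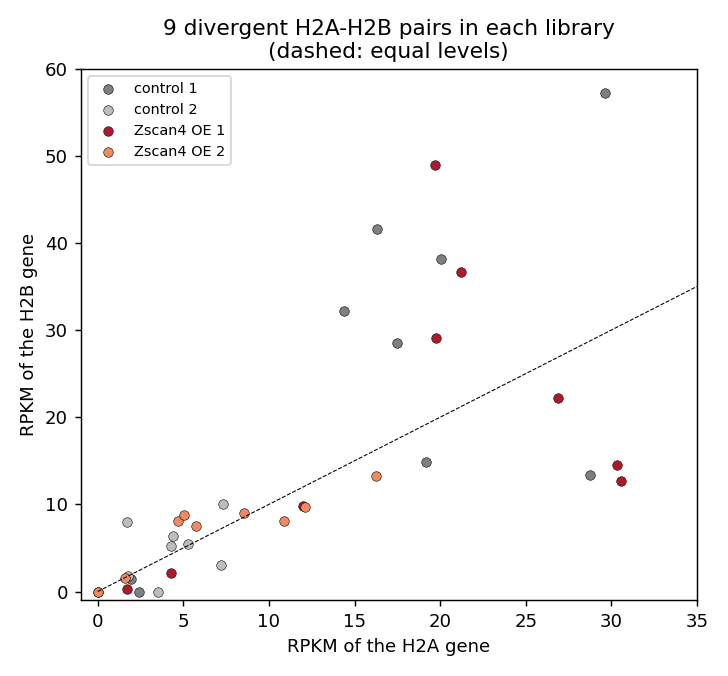
RPKM of the H2B gene against RPKM of its head-to-head H2A partner for 9 pairs in each of the 4 libraries, with equal levels as a dashed line. Points of control 2 and Zscan4 OE 2 lie at or below 16.2 RPKM on the H2A axis, and those of control 1 and Zscan4 OE 1 reach 30.5 RPKM on it.

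Feature length differed widely, also within a histone type such as H2B (128 bp for Hist1h2ba, 4446 bp for Hist1h2be). The lengths behind the RPKM values, recovered from the values as the smallest whole numbers that give them, ran from 128 bp (Hist1h2ba, whose RefSeq span is 432 bp) to 7425 bp (Hist1h1d, span 776 bp), and 34 exceeded the RefSeq span of the gene. The 47 members of 1000 bp or less averaged 15.5, 4.42, 15.7 and 6.61 RPKM and the 18 longer ones 7.47, 2.69, 6.60 and 3.28 RPKM. Across the 65 members Spearman's rho between length and mean RPKM was −0.26. Hist1h2be, an H2B gene with a 4446 bp feature, averaged 3.35 RPKM, and Hist1h1d, the longest, averaged 4.08 RPKM. Both length classes were higher in control 1 than control 2 (3.45 and 2.63 times in RPM) and in Zscan4 OE 1 than Zscan4 OE 2 (2.36 and 1.91 times).

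**Figure D4:**
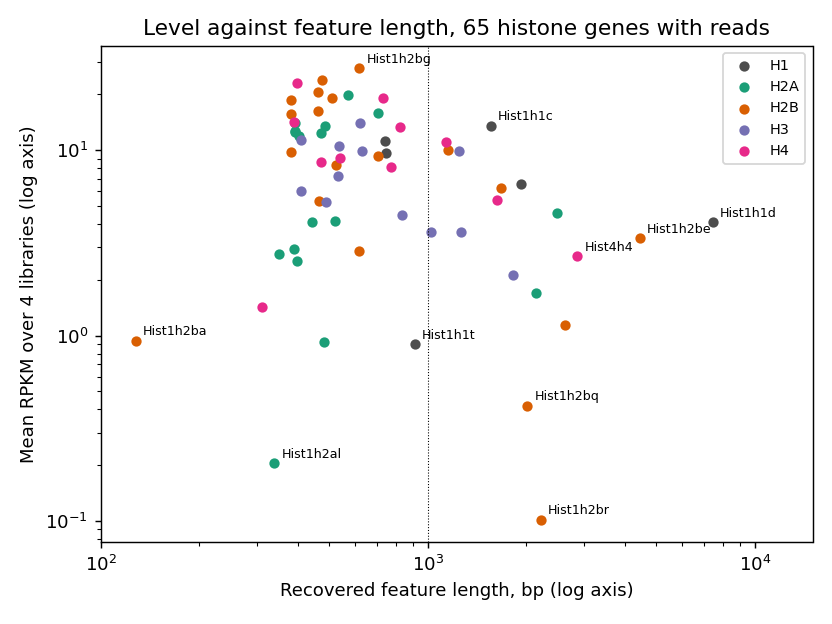
Mean RPKM over the 4 libraries against recovered feature length in bp (both log axes) for 65 histone genes, coloured by type, with a dotted line at 1000 bp. Most members lie at 300 to 1000 bp and above 1 RPKM, while Hist1h1d at 7425 bp and Hist1h2be at 4446 bp lie at 4.08 and 3.35 RPKM.

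Gene by gene, no histone gene passed the test between Zscan4 OE and control. limma called 0 of 65 histone genes higher and 0 lower at an adjusted p under 0.05, against 0.0% of all 42989 tested rows in each direction, and voom called 0 histone genes as well. At an unadjusted p under 0.05, 1 histone gene was higher (5.09% of all rows were) and 0 were lower (1.33%). Zscan4 OE lay wholly above control for 4 histone genes, against 19.6% of all rows, and wholly below for 1, against 10.1%. The median difference was 0.21 on the log2 scale, with 40 positive and 25 negative, beside 0.28 over all tested rows (−0.07 beside 0.0033 when each library was centred on its median). Over all 42989 tested rows, 26652 were positive and 16337 negative. Within the libraries numbered 1, Zscan4 OE was above control for 28 of 65 (52.7% of all rows were), and within those numbered 2 for 45 of 65 (53.4% of all rows were). The labels do not say that the numbers pair libraries.

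The testis types averaged less than the rest of Hist1 in every library and held the only unadjusted call. Together Hist1h1t, Hist1h2aa and Hist1h2ba had 2, 6, 10 and 8 reads and averaged 1.15, 1.43, 2.45 and 1.35 RPKM, where the other 51 Hist1 genes averaged 15.5, 4.34, 15.1 and 6.43 RPKM. Hist1h2ba (chr13:23933725-23934156), the testis H2B, was listed at 0 in both controls and at 2.17 and 1.59 RPKM in Zscan4 OE, values that correspond to as little as 1 read in each. The groups did not overlap, and limma's unadjusted p was 0.0028 and its adjusted p 0.196. The fitted log2 difference of 4.29 ± 0.718 (SE) depends on the constant added before the logarithm, with 1.52 at 1 RPKM and 7.55 at 0.01 RPKM, and no fold is given because both groups lie at or under the 3-read floor. Without Zscan4 OE 1 the adjusted p was 0.0118 and without Zscan4 OE 2 it was 0.0272, where a lone library is taken to vary like the others and 4340 and 3860 rows were called higher.

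Hist1h2aa (chr13:23934437-23934913), the testis H2A that shares its start region with Hist1h2ba, was at 2.42, 3.53, 4.27 and 1.57 RPKM, with overlapping groups and a difference of −0.16 ± 0.64. Hist1h1t (chr13:23695811-23696545), the testis H1, was at 1.03, 0.755, 0.912 and 0.895 RPKM, the most even of the named members across libraries. Hist1h1c (chr13:23738807-23739531), a linker histone of somatic cells whose upstream DNA is printed beside that of Hist1h1t, was at 19.3, 6.84, 18.1 and 9.81 RPKM. It was high in the libraries numbered 1 and low in those numbered 2. Hist1h1t rested on 1 to 4 reads a library, too few to tell such ratios from counting error.

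**Figure D5:**
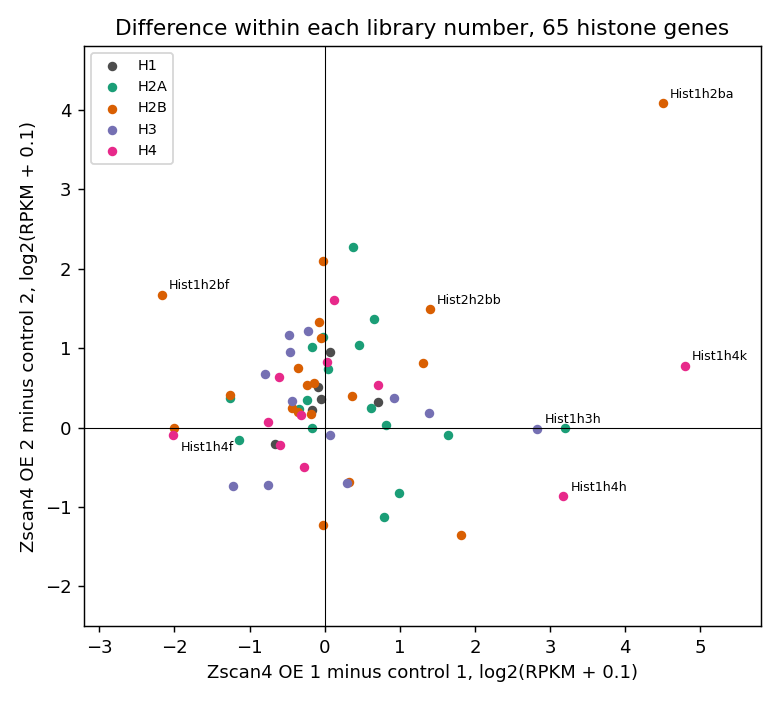
Difference in log2(RPKM + 0.1) of Zscan4 OE 1 from control 1 (x axis) and of Zscan4 OE 2 from control 2 (y axis) for 65 histone genes, coloured by type. Most genes lie near 0 on the x axis and above 0 on the y axis (45 of 65 above), and Hist1h2ba stands alone at the upper right with 0 reads in both controls.

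Among members with the largest positive limma statistics after Hist1h2ba, Hist1h4k (chr13:21750145-21750553, H4) was at 0, 1.10, 2.67 and 1.96 RPKM from 0, 1, 3 and 3 reads, a difference of 2.78 ± 1.30 (SE). Hist2h2bb (chr3:96269700-96270192), an H2B gene with an octamer, was at 12.4, 4.52, 32.8 and 12.9 RPKM from 5, 5, 45 and 24 reads. Its Zscan4 OE libraries both lay above its controls, control 1 and Zscan4 OE 2 nearly level, with a difference of 1.44 ± 0.94 and an adjusted p of 0.869 by limma. Hist1h3a (chr13:23761885-23762386, H3), the other gene whose Zscan4 OE libraries both lay above control, was at 7.06, 7.74, 18.7 and 8.79 RPKM. It was named for that after its values were seen. Hist1h3h (H3) was at 2.29, 2.51, 16.9 and 2.48 RPKM, high in Zscan4 OE 1 alone. Hist1h2bc (H2B) was at 8.15, 4.17, 20.4 and 7.42 RPKM, also highest in Zscan4 OE 1.

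On the negative side, Hist1h4f (chr13:23551286-23551668, H4) was at 28.9, 10.6, 7.09 and 9.92 RPKM, the only histone gene wholly lower in Zscan4 OE, with a difference of −1.05 ± 0.84 and an adjusted p of 0.869 by limma. Control 1 was far above the 3 other libraries, and control 2 and Zscan4 OE 2 were close. Hist1h3g (H3) was at 15.998, 3.90, 6.80 and 2.31 RPKM and Hist2h3b (H3) at 9.65, 3.53, 5.68 and 2.09 RPKM. Both ran in the same order, control 1, Zscan4 OE 1, control 2, Zscan4 OE 2. Hist1h2af (H2A) was at 4.72, 1.73, 2.09 and 1.53 RPKM from 2 to 3 reads, and Hist1h1d (H1) at 6.85, 2.78, 4.30 and 2.39 RPKM from 54, 60, 115 and 87 reads. The smallest adjusted p among these was 0.869 by limma.

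Hist3 held an H2A gene, an H2B gene and a pseudogene (chr11:58948911-58955192). Hist3h2a was at 1.32, 1.77, 2.71 and 0.951 RPKM, Hist3h2ba at 4.603, 1.68, 4.52 and 0.665 RPKM and Hist3h2bb-ps at 10.1, 2.96, 4.17 and 3.95 RPKM, with overlapping groups in each. The pseudogene was the highest of the 3 in 3 of 4 libraries. Hist4h4 (chr6:136803993-136804431) had 14, 10, 31 and 27 reads and a difference of 0.02 ± 0.77, with both libraries numbered 1 above both numbered 2.

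Genes that act with the clusters were listed with earlier results of these data known. Histone genes outside the clusters, which encode replacement variants such as H2A.X and H3.3, had 14 of 15 listed rows tested, 7 with a positive and 7 with a negative difference and a median of −0.02, and limma called 0. They averaged 1.93, 1.29, 2.11 and 1.28 RPKM, in each library below the clustered genes. Hils1, a spermatid linker histone, was at 1.09, 3.19, 0.963 and 0 RPKM. H1f0, the linker histone of differentiated cells, was at 0.458, 0.503, 1.35 and 0.695 RPKM. The groups did not overlap for either gene, Hils1 being lower and H1f0 higher in Zscan4 OE. Hils1 rested on 1, 8, 3 and 0 reads and H1f0 on 1, 3, 10 and 7 reads. Control 1 held 1 read of each, so these orders are not resolved. Of the 14 tested genes, 3 lay wholly higher, against 19.6% of all tested rows, and 1 wholly lower, against 10.1%.

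Genes of histone transcription and mRNA processing (24 tested) had 18 positive and 6 negative differences with a median of 0.17, and limma called 0. Npat was at 1.51, 1.10, 1.42 and 0.882 RPKM and Slbp at 1.09, 0.907, 1.83 and 0.739 RPKM, both chosen for their role after values were seen. By the largest statistic, Coil, the scaffold of Cajal bodies, was at 0.268, 0.881, 2.05 and 1.33 RPKM (1.55 ± 0.69) and Cdk2, the S-phase kinase that phosphorylates NPAT, at 0, 0.886, 0.892 and 0.952 RPKM. Neither passed, at an adjusted p of 0.869 by limma, though the groups did not overlap for either. Of the 24 tested genes, 8 lay wholly higher in Zscan4 OE, Coil and Cdk2 among them, against 19.6% of all tested rows. Wholly lower was 1, against 10.1%. Cdk2 was nearly level in control 2 and Zscan4 OE 1. Rnu7, the 62 bp gene of the U7 RNA, was at 122, 49.99, 116 and 52.7 RPKM from 8, 9, 26 and 16 reads, and was, like most clustered genes, higher in the libraries numbered 1; it too was named after its values were seen.

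Histone chaperones (22 tested), which carry histones to DNA, had 17 positive and 5 negative differences with a median of 0.21, and limma called 0. Rbbp4, a histone-binding subunit of CAF-1 and of co-repressor complexes, was at 0.431, 0.236, 1.30 and 0.700 RPKM (1.32 ± 0.66), and Chaf1b, another CAF-1 subunit, at 0.377, 0.964, 1.72 and 0.979 RPKM (0.98 ± 0.66). Both had Zscan4 OE libraries above both controls, and both had an adjusted p of 0.869 by limma. Of the 22 chaperones, 3 lay wholly higher in Zscan4 OE, against 19.6% of all tested rows, and 0 wholly lower, against 10.1%. The medians of all 3 lists lay below the 0.28 of all tested rows, of which 26652 of 42989 had a positive difference.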

How the data were processed

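ATAC-seq was read in 2 control and 2 Zscan4 OE libraries. Per the submitters' processing notes, reads were handled with Trimmomatic, Bowtie2 and featureCounts on build mm10. The sources used here do not state versions, read filters, the annotation, or how duplicates, multiply mapped reads and Tn5 cut sites were treated. The deposited values are RPKM per the labels, 1 per gene and library. They did not share 1 total per library: 8 totals took turns over rows and columns. For each row the smallest whole reads and length that yield its values were found (exactly 1 rotation solved each of 38361 rows with at least 2 values above 0). Reads and length may be low by the same factor, which leaves RPKM unchanged. Of the 8 placements of totals in rotation order, the one with the most alike shares of feature reads was used (ratio of highest to lowest 1.36, others 4.17 to 10.1). Rescaled RPKM was then computed on each library's own total. On simulated data with known answers, 8 totals, 100% of rotations and 94.7% of lengths were recovered. In the deposited table, 86.3% of 1162 short RNA genes with at least 2 values above 0 came out at their annotated length.

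Groups were compared on log2(RPKM + 0.1) with limma (version 3.58.1, under R 4.3.3), using an eBayes trend without covariates, two-sided, over 42989 rows with a mean of at least 0.1 RPKM, with Benjamini-Hochberg adjustment over all of them and a threshold of 0.05. A log2 difference understates the change of low genes. Summaries used Python 3.11.15 and scipy 1.17.1. Coordinates and sequences are from RefSeq on GRCm38.p6, which matched 34202 rows, through synonyms where symbols were older. The genes described by rule were the testis types, Hist3 and Hist4, the 5 highest and 3 lowest members by mean RPKM, the 5 members with the largest limma statistic in each direction, and 2 genes per related list. Other genes are said to be chosen after seeing values, as were the motifs and sequences shown. The members and lists were chosen with earlier results of these data known. Alternatives were other added constants (1 and 0.01 RPKM), other filters, 2 other scalings, the values as deposited, voom on recovered reads, a replicate block and leaving out each library. Depth was 1061428, 2903602, 3605774 and 4899494 reads for control 1, control 2, Zscan4 OE 1 and Zscan4 OE 2, which leaves few reads per member and limits the precision for single genes.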

Additional observations from a re-analysis of the deposited data

How the results depend on the processing

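No setting that kept all 4 libraries called a histone gene in either direction. Over all rows, the calls were 4 higher and 1 lower among rows with 20 reads or more and 1 lower with voom. With values as deposited the median histone difference was 1.51 (1.40 over all rows) and the ratio of summed RPKM 2.84, since rotating totals stay in those values. With each library centred on its median, the median was −0.07 for histone genes and 0.0033 over all rows. With the replicate number as a block, the median stayed 0.21 and 0 histone genes were called, and 0 also among rows with 20 reads or more, a combination chosen after seeing the data. Deviations from the group means of same-numbered libraries correlated at 0.042 over all tested rows, 0.129 among rows with 20 reads or more and 0.164 over the 65 histone genes. With 2 pairs and no label on what the number marks, this does not show whether the numbers pair libraries. Leaving out each library gave a ratio of summed histone reads of 0.650 to 2.10, a median of −0.58 to 0.95, 0 to 2 histone genes called higher (Hist1h2ba without either Zscan4 OE library, and Hist1h2al, at 1 read, without Zscan4 OE 2), 0 called lower, and 0 to 4340 rows called higher and 0 to 9 lower; the ratio was 2.10 without control 1 and 0.684 without control 2. Chosen after seeing the data, members of 1000 bp or less gave a ratio of 1.11 and longer ones 0.922.

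Of the 30 named genes, 13 kept the sign of their difference in every setting. It turned with quantile normalization for Hist1h1t (−0.11), Hist3h2a (−0.093) and Hist1h2br (−0.66), with centring for Hist1h1t (−0.25), Hist3h2a (−0.19), Hist4h4 (−0.26) and Hist1h2br (−0.046), with 1 RPKM added for Hist4h4 (−0.039), with voom for Hist3h2bb-ps (0.0043), Hist3h2a (−0.14), Hist1h2bk (0.21) and Hist1h2bf (0.19), and with values as deposited for Hist1h2bk (0.19), Hist1h2bf (1.62), Hist1h4f (0.42), Hist1h3g (0.14), Hist2h3b (0.89) and Hist1h1d (1.56). The cause was not tested. Leaving out each library turned the difference of Hist1h1t (−0.17 to 0.23), Hist1h2aa (−0.86 to 0.53), Hist3h2ba (−1.92 to 0.67), Hist3h2bb-ps (−1.30 to 0.44), Hist3h2a (−0.63 to 0.79), Hist4h4 (−0.91 to 0.94), Hist1h2bg (−0.58 to 1.33), Hist1h2bk (−1.19 to 1.18), Hist1h4b (−0.19 to 1.43), Hist1h2bf (−2.36 to 1.86), Hist1h2ad (−0.62 to 1.40), Hist1h2br (−0.45 to 1.13), Hist1h2af (−1.35 to 0.049), Hist1h3g (−1.98 to 0.029) and Hist1h1d (−1.07 to 0.20). Hist1h2ba, Hist1h1t and Hist1h4k, with 0 to 4 recovered reads a library, are too shallow for a difference to be resolved.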
